A study of Mus musculus with 17 samples.

Results

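The MHC class II presentation genes described here are 9 genes of mouse, listed by symbol with earlier results of these data known: H2-Aa, H2-Ab1, H2-Eb1, Cd74, Ciita, H2-DMa, H2-DMb1, H2-DMb2 and H2-Oa. All 9 were among the 22859 genes of the deposited count table, and all 9 were among the 15272 genes kept by the filter on low counts. They were followed in bulk RNA-seq of macrophages sorted from the collagenase-digested synovium of adult Fcgr2b-KO mice, which lack the inhibitory Fc gamma receptor. Every mouse carried this deletion, the controls included, so no wild-type group is part of the comparison.

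The treated mice received immune complexes (IC) into a vein and were culled 8 h later, and the controls are labelled as healthy and as control. By the study's methods, the complexes were ovalbumin bound by rabbit antibodies against it, and mice of both sexes were used. Each of 6 groups combined 1 sorted subset with 1 treatment. The subsets were LYVE1+CX3CR1+ macrophages, taken from the MHCII− gate, MHCII+CD11c− macrophages and MHCII+CD11c+ macrophages. There were 3 libraries in each group, except 2 in MHCII+CD11c+ after IC, which makes 17. The labels do not say whether libraries came from separate mice, and each may be a pool, so p-values measure the spread between these libraries only. Totals ran from 2301913 to 7248939 counts per library. The targeted gene, Fcgr2b, was counted in every library, at 69.3 to 248 counts per 1000000 (CPM, after TMM scaling). Gene counts do not show which exons these reads came from, so they do not check the genotype. All 6 macrophage markers listed were detected in every library.

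Class II molecules carry peptides from endocytosed proteins to the cell surface, where CD4+ T cells read them. Each molecule pairs an α chain with a β chain. It is assembled on the invariant chain, the product of Cd74, which fills the groove until proteases in the endosome cut it down to a short fragment called CLIP. H2-DM, made of H2-DMa with a β chain from H2-DMb1 or H2-DMb2, removes CLIP and lets peptides bind, and H2-DO, whose α chain is encoded by H2-Oa, restrains H2-DM. Ciita encodes the coactivator that switches the whole set on. It does not bind DNA itself but is recruited by factors on the X and Y boxes upstream of class II genes.

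The sort itself used antibodies to the class II proteins I-A and I-E. Differences of these genes between the MHCII− and MHCII+ gates therefore describe the sort and are not findings. IC against control within a gate, and CD11c+ against CD11c− among MHCII+ cells, were not fixed by class II staining.

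The stretch upstream of the start site is shown for 5 members because the boxes through which Ciita acts are known to lie there. RefSeq promoter sequences of GRCm38.p6, the build of the files (mm10), were found for 6 of the 9 members, with 2 starts for H2-DMa. Capitals mark ATTGG, which is CCAAT (the Y box core) read on the other strand, and the X1 core GCAACNG where it occurred. Each sequence is written 5′ to 3′ on the gene's strand. Its 55 bases end with the Y box core, except for H2-DMb1, where an annotated exon covers the region and 30 bases are shown.
H2-Aa, chr17:34287867-34287921, minus strand: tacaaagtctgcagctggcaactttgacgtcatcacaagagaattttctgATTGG
H2-Eb1, chr17:34305758-34305812, plus strand: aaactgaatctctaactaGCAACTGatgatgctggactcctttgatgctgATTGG
H2-DMb2, chr17:34145109-34145163, plus strand: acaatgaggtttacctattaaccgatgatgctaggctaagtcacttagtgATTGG
H2-DMb1, chr17:34153110-34153139, plus strand: ctaggctgattcactcagtgATTGGtctga
H2-Oa, chr17:34092286-34092340, plus strand: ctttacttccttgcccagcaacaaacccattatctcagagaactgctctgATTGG

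In these 5 promoters ATTGG began 43 to 90 bases before the start: at -48 in H2-Aa, -59 in H2-Eb1, -90 in H2-DMb2, -61 in H2-DMb1 and -43 in H2-Oa. CCAAT on either strand was held by 6 of the 7 member promoters and by 37.4% of all 32851 promoters of the same length (300 bases). The exception was 1 of the 2 H2-DMa starts, and at the other start the match lay at -198. TGATTGG, which holds ATTGG with 2 more bases and was chosen after the sequences were seen, was in 5 of 7 member promoters and in 7.82% of all promoters. GCAACNG was in H2-Eb1 alone among the 7, and in 12.7% of all promoters. H2-Eb1 was also the only 1 of the 7 with GCAACNG followed by ATTGG within 15 to 40 bases, an arrangement found in 0.396% of all promoters. H2-Aa and H2-Oa carry gcaac without the final G of the searched letters. Positions count from the RefSeq starts, which match the GENCODE starts for H2-Aa and H2-Eb1 and lie within the longer GENCODE gene for H2-Oa, H2-DMa, H2-DMb1 and H2-DMb2. These matches are descriptions of letters and not of binding.

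By the GENCODE M21 annotation of the same build, 7 members lie on chromosome 17 between 34092340 and 34316674, the class II region. Ciita lies on chromosome 16 (10480059 to 10528418) and Cd74 on chromosome 18 (60803848 to 60812652). H2-DMb1 and H2-DMb2 are closely related neighbours whose reads may be split between them, so their separate values are less certain than their sum. H2-DMa overlaps the end of Brd2 on the opposite strand, a gene at 504 to 1039 CPM in these libraries. H2-Eb1 overlaps Gm20513 (0 to 29.1 CPM), H2-Oa overlaps BC051537 (0 to 0.427 CPM), and Ciita overlaps Dexi, each on the opposite strand. The kit keeps strand, but whether the counting used it is not stated.

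Together the 9 genes took 1.77% ± 0.124 (SD, n = 3) of all counts in MHCII+CD11c− control libraries and 2.98% ± 0.799 (n = 3) in MHCII+CD11c+ control libraries. After IC the shares were 1.12% ± 0.0471 (n = 3) and 2.85% ± 0.297 (n = 2). In LYVE1+CX3CR1+ libraries they were 0.0153% ± 0.00300 (n = 3) in controls and 0.00498% ± 0.00198 (n = 3) after IC. The order of the groups was thus the same as in most single genes, with CD11c+ above CD11c− and both far above the LYVE1+ gate.

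**Figure D1:**
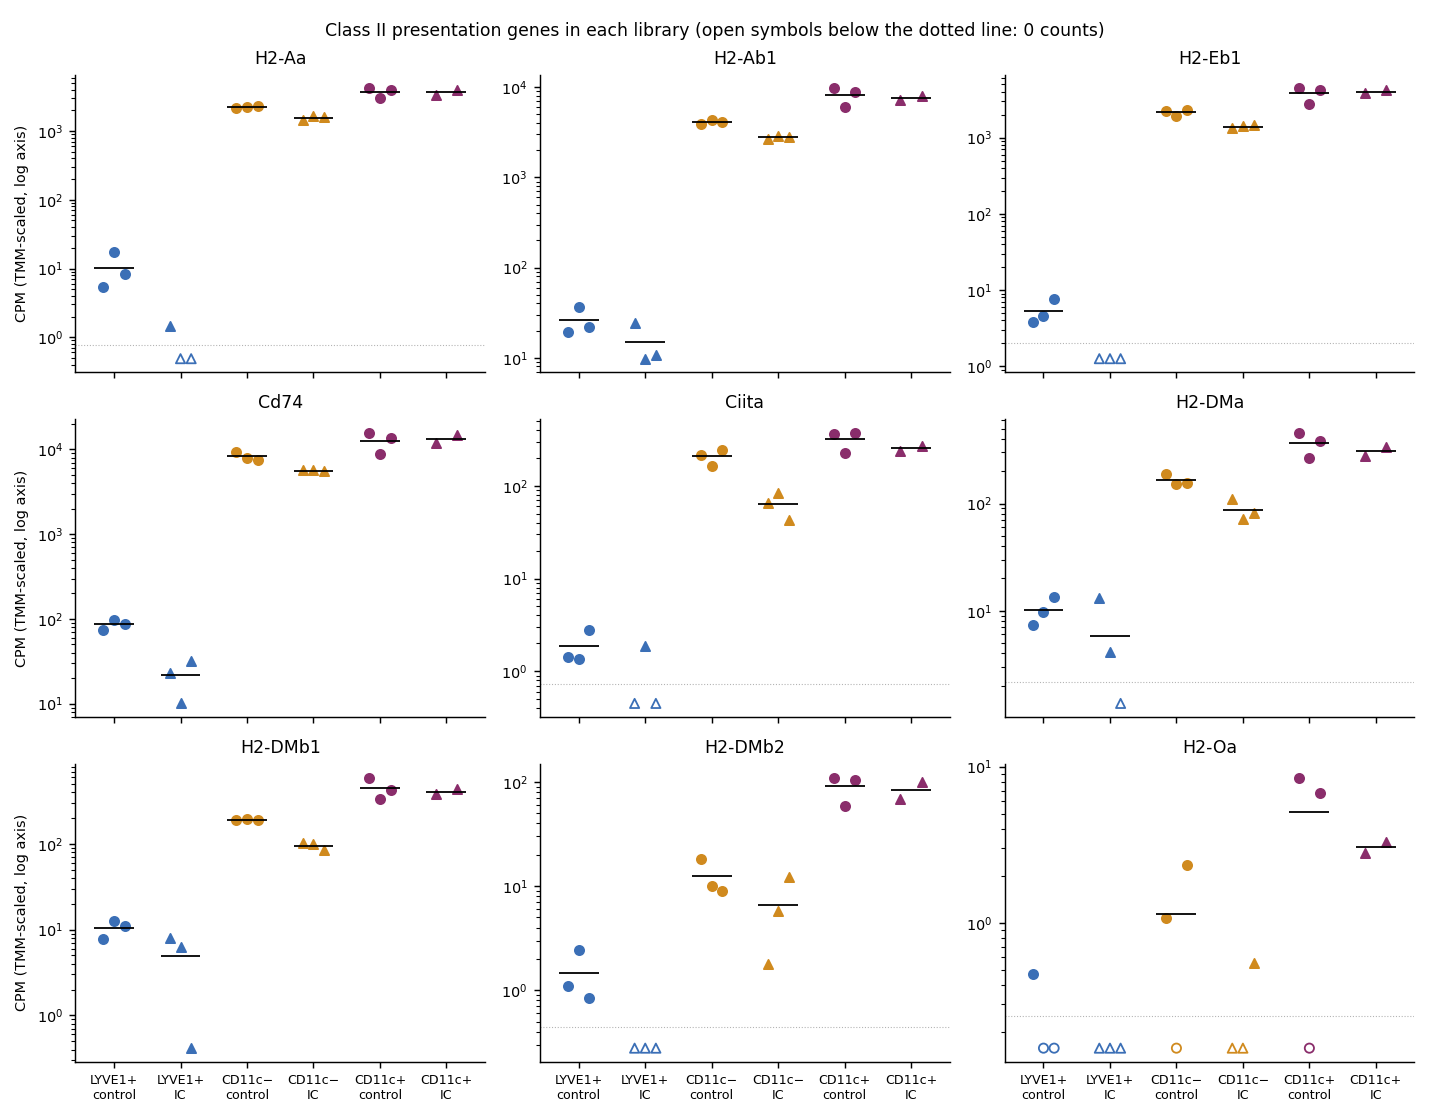
CPM of each of the 9 genes (log axis) in each of the 17 libraries, by sorted subset and treatment, with circles for control, triangles for IC and a line for the group mean. Open symbols under the dotted line are libraries with 0 counts; H2-Eb1 had 0 counts in all 3 LYVE1+CX3CR1+ libraries after IC, and CD11c− libraries after IC lay below all CD11c− controls for 7 of the 9 genes.

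Per kilobase of exon, a scale for setting genes side by side, Cd74 was the highest of the 9 in every group, as it was in CPM. The length is the union of all annotated exons of a gene, 3798 bases for H2-Aa and 9535 for Ciita. It can exceed the length of the transcripts present, so places in the order depend on the annotation. In MHCII+CD11c− controls its level was 4931 ± 561 CPM per kb (SD, n = 3), followed by H2-Ab1 at 1603 ± 83.7, H2-Eb1 at 1109.5 ± 98.1 and H2-Aa at 589.5 ± 26.7. H2-DMb1 (114 ± 1.47), H2-DMa (48.2 ± 5.56), Ciita (21.7 ± 4.12), H2-DMb2 (7.10 ± 2.85) and H2-Oa (0.807 ± 0.833) came below. The presenting chains and their chaperone thus stood above the peptide editor, and the coactivator Ciita and the H2-DO chain were near the end of the order. For Ciita this place rests on the length used. In CPM it was at 207, above H2-DMb1 (192) and H2-DMa (166). In MHCII+CD11c+ controls the first 6 places were the same, and H2-DMb2 (51.8 ± 15.9) stood above Ciita (33.6 ± 8.48). In CPM that last order was the reverse, with H2-DMb2 at 90.4 and Ciita at 320.

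In the LYVE1+CX3CR1+ controls the order of levels per kilobase was different. Cd74 (51.3 ± 7.04 CPM per kb) and H2-Ab1 (10.1 ± 3.66) were again first, but H2-DMb1 (6.26 ± 1.52) and H2-DMa (2.96 ± 0.898) came next, above H2-Eb1 (2.73 ± 1.02) and H2-Aa (2.72 ± 1.64). H2-DMa, H2-Eb1 and H2-Aa did not differ there beyond their spread. H2-DMa was at 7.40 to 13.5 CPM in these libraries. If the counting ignored strand, reads of the overlapping gene Brd2 could weigh most on such low values. Within a library, H2-DMa counts were 16.8% to 35.9% of the summed H2-Aa, H2-Ab1 and H2-Eb1 counts in LYVE1+ controls and 1.78% to 2.47% in MHCII+ controls. The gap across the gate was correspondingly uneven. In controls, LYVE1+CX3CR1+ libraries were below MHCII+CD11c− libraries by a log2 fold change of -8.64 for H2-Eb1, -7.80 for H2-Aa and -7.32 for H2-Ab1, but by -4.01 for H2-DMa, -4.20 for H2-DMb1 and -3.18 for H2-DMb2. Ciita (-6.72) and Cd74 (-6.59) lay between. In this contrast 8 of the 9 passed the test, all lower, against 1.56% of all genes in either direction and 1.22% lower. The libraries of these 8 did not overlap, against 10.3% of all genes. It was also 8 of 9, all lower, against CD11c+ controls (15.2% of all genes called), and after IC against CD11c− (5.54%) and CD11c+ (11.9%). As the gate sorted on the proteins, these values describe the sort.

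Levels are read here as amounts of RNA in a sorted sample. In bulk libraries, fewer cells that express a gene and less RNA of that gene per cell cannot be told apart.

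The first question was whether IC changed the class II genes within the MHCII− gate. In LYVE1+CX3CR1+ macrophages, H2-Eb1 and H2-Aa, a chain each of I-E and I-A, and the invariant chain gene Cd74 were lower 8 h after IC: these passed the test, 3 of 9 genes, against 0.963% of all genes called in either direction and 0.812% lower. Fold changes were negative for all 9, with a median log2 fold change of -2.01 (-1.50 when genes with no counts after IC are set at their limits), beside -0.14 over all genes tested. All of this happened at low levels, since the gate had removed cells with class II protein. Depth also went with treatment in this subset. The treated libraries held 3348248, 3091011 and 2301913 counts in all, each fewer than any control (6179255, 3669763 and 7248939). Raw counts are therefore compared at unlike depth, and 0 counts are easier to reach after IC. At equal depth the same 3 genes were called.

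H2-Eb1, the β chain of I-E, had 24, 17 and 54 counts in the controls and 0, 0 and 0 after IC. In CPM the controls were at 3.78, 4.59 and 7.54. All 3 treated libraries were thus below every control, at least 5.19-fold lower with a floor of 3 counts per library (adjusted p = 5.85e-06, edgeR's quasi-likelihood test). H2-Aa, the α chain of I-A, was at 5.35, 17.3 and 8.37 CPM in controls and at 1.46, 0 and 0 CPM after IC. Its log2 fold change was -4.12 ± 0.66 (SE, adjusted p = 0.0121), a fitted value that rests on 5 counts in all after IC. Cd74, with the best-covered change of the 3, was at 73.5, 97.0 and 87.6 CPM in controls and at 23.1, 10.1 and 31.5 CPM after IC, without overlap. It fell by 2.01 ± 0.29 on the log2 scale (adjusted p = 0.00258).

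H2-Ab1, the β chain of I-A, was the most abundant of the 3 chains in this gate and did not pass. It was at 19.4, 36.8 and 21.9 CPM in controls and at 24.6, 9.76 and 10.8 CPM after IC, so that the first treated library lay among the controls (log2 fold change -0.76 ± 0.30, adjusted p = 0.245). The H2-DM genes did not pass either. H2-DMa was at 7.40, 9.73 and 13.5 CPM and then at 13.2, 4.09 and 0 CPM, with 1 treated library among the controls and 2 below them (adjusted p = 0.668). H2-DMb1 gave a log2 fold change of -1.02 ± 0.42 (adjusted p = 0.276). H2-DMb2 had 7, 9 and 6 counts in the control libraries against 0 in all 3 treated ones, at least 1.43-fold lower by the same floor (adjusted p = 0.109). Ciita had 9, 5 and 20 counts and then 0, 6 and 0 (adjusted p = 0.396). H2-Oa was counted 3, 0 and 0 times in the controls and never after IC, so nothing can be read from it at this depth.

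Single libraries decided several of these values. Without IC library 2, whose 6 counts were the only ones after IC, Ciita passed (adjusted p = 0.0333). Without IC library 1, H2-Ab1 passed (-1.29, adjusted p = 0.0268) and the fitted value of H2-Aa, then with no counts left after IC, was -8.53. DESeq2 also called H2-DMb2 (adjusted p = 0.0365).

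Libraries did not overlap, with IC lower, for 4 of the 9 genes (H2-Eb1, H2-Aa, Cd74 and H2-DMb2), against 16.7% of all genes. The 3 calls were not made by limma voom with quality weights, which called 0 of 9. A fit on these 6 libraries alone tested 6 members, as the others did not pass its filter on low counts. It called Cd74 alone. H2-Eb1 (adjusted p = 0.165) and H2-Aa (adjusted p = 0.215) did not pass the quasi-likelihood test there. The summed level of 7 dendritic cell markers was 19.5 to 23.4 CPM in controls and 6.61 to 12.03 CPM after IC. That of 6 B cell markers was 1.10 to 2.23 CPM and then 0 in all 3. No marker of either list passed. At an unadjusted p under 0.05 there were 1 of 6 and 0 of 6 tested, against 14.1% of all genes. Monocyte, neutrophil, fibroblast and endothelial sums overlapped between treatments. The LYVE1+CX3CR1+ gate markers were higher after IC without overlap, at 3847 to 4735 CPM and then 5904 to 7015 CPM. Of these, 0 of 6 passed. The part of these cells in the result was not tested.

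The same question in MHCII+CD11c− macrophages could be read at higher levels. Ciita, the coactivator, fell to less than its level in any control. It was the 1 gene of 9 that passed, against 0.701% of all genes called in either direction and 0.157% lower. The fitted fold changes of all 9 were negative, with a median log2 fold change of -0.92 beside -0.03 over all genes. For 7 of the 9 the libraries did not overlap, with every treated library below every control, against 8.48% of all genes.

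Ciita was at 214, 165 and 242 CPM in the controls and at 65.0, 84.1 and 42.4 CPM after IC. The lowest control was thus well above the highest treated library. The fall was 1.69 ± 0.35 on the log2 scale, or 3.24-fold (adjusted p = 0.0316). Relative to the 3 chains in the same library, Ciita counts were 1.94% to 2.76% in controls and 0.723% to 1.43% after IC. That ratio was chosen after its values were seen and is given without a test.

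The chains and the invariant chain had lower values without passing the test. Cd74 was at 9342, 7950 and 7546 CPM in controls and at 5721, 5673 and 5522 CPM after IC (log2 fold change -0.55 ± 0.26, adjusted p = 0.501). H2-Ab1 was at 3883, 4307 and 4158 CPM and then at 2654, 2852 and 2821 CPM (-0.57 ± 0.27, adjusted p = 0.49). Neither gene's groups overlapped. H2-Eb1 (-0.62 ± 0.19, adjusted p = 0.187) and H2-Aa (-0.53 ± 0.35, adjusted p = 0.714) gave similar values, with IC libraries at 1325 to 1463 CPM and 1429 to 1638 CPM and controls at 1938 to 2285 CPM and 2134 to 2336 CPM.

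Among the H2-DM genes, H2-DMb1 was at 190, 195 and 192 CPM in controls and at 102, 101 and 85.6 CPM after IC, with no overlap (-1.002 ± 0.335, adjusted p = 0.254). H2-DMa was at 188, 154 and 157 CPM and then at 111, 71.7 and 80.9 CPM, also without overlap (-0.92 ± 0.51, adjusted p = 0.625). H2-DMb2 overlapped between groups, at 18.1, 10.1 and 9.03 CPM against 1.77, 5.77 and 12.1 CPM. For H2-Oa the control libraries held 5, 0 and 7 counts and the treated ones 0, 0 and 2, too few to compare.

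The Ciita call was made under 11 of 17 alternatives. It was lost, among others, without control library 1 (adjusted p = 0.121), control library 3 (0.141), IC library 1 (0.0798) or IC library 3 (0.187), and with no filter on low counts (0.0918), while its log2 fold change stayed between -1.95 and -1.47. H2-DMb1 was called in addition by DESeq2 (adjusted p = 0.00773), voom, the fit on these libraries alone and the fit without the treated LYVE1+ libraries.

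Marker sums of other cells are given beside this result. No B cell, dendritic cell or LYVE1+CX3CR1+ gate marker passed the test in this contrast. At an unadjusted p under 0.05 there were 2 of 6, 2 of 6 and 1 of 6 tested, against 9.99% of all genes. Their median log2 fold changes were -2.80, -1.16 and 0.33. The summed level of 6 B cell markers, a cell type that also carries class II, was 45.0, 14.0 and 46.5 CPM in controls and 0.443, 17.9 and 9.36 CPM after IC. The highest treated library lay above the lowest control. The 7 dendritic cell markers summed to 179, 96.0 and 245 CPM in controls and to 85.6, 82.2 and 77.1 CPM after IC, without overlap. The 6 markers of the LYVE1+CX3CR1+ gate overlapped between treatments, at 1021, 1903 and 1146 CPM in controls and 3367, 1844 and 2854 CPM after IC. The part of these cells in the result was not tested.

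**Figure D2:**
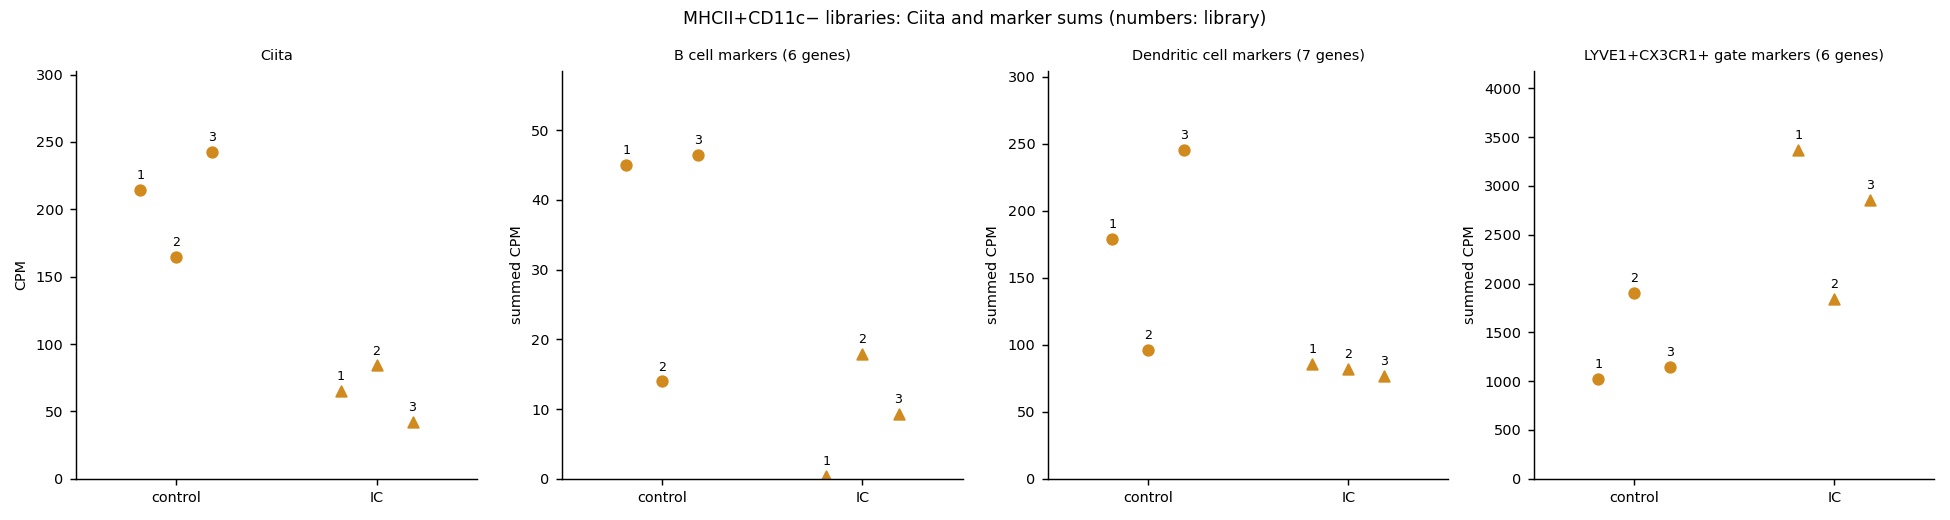
Ciita (CPM) and the summed CPM of B cell, dendritic cell and LYVE1+CX3CR1+ gate markers in the MHCII+CD11c− libraries, with circles for control, triangles for IC and numbers for the library. Ciita was at 165 to 242 CPM in controls and at 42.4 to 84.1 CPM after IC, and the B cell sum was 14.0 to 46.5 CPM in controls and 0.443 to 17.9 CPM after IC.

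In MHCII+CD11c+ macrophages no class II gene passed the test after IC, and 0 of 9 had an unadjusted p under 0.05. Of all genes, 5.21% had such a p and 0.216% were called. Log2 fold changes of the 8 genes other than H2-Oa ran from -0.34 ± 0.38 (Ciita) to 0.08 ± 0.29 (Cd74), with SEs between 0.22 and 0.56. Cd74 was at 15725, 8885 and 13613 CPM in controls and at 11935 and 14976 CPM after IC, and the treated libraries of all 9 genes overlapped the controls. The voom fit also called 0 of 9, as did DESeq2. Signs near zero turned with the scaling: under the RLE normalization H2-Eb1 and Cd74 were at -0.0184 and -0.0105.

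Control library 2 of this group was the lowest of its 3 controls for each of the 9 genes. It also held more of the LYVE1+CX3CR1+ gate markers (632 CPM against 100.2 and 64.3 CPM) and less of the dendritic cell markers (255 CPM against 650.0 and 595 CPM). Without it, 0 of 9 members were called, as with it.

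**Figure D3:**
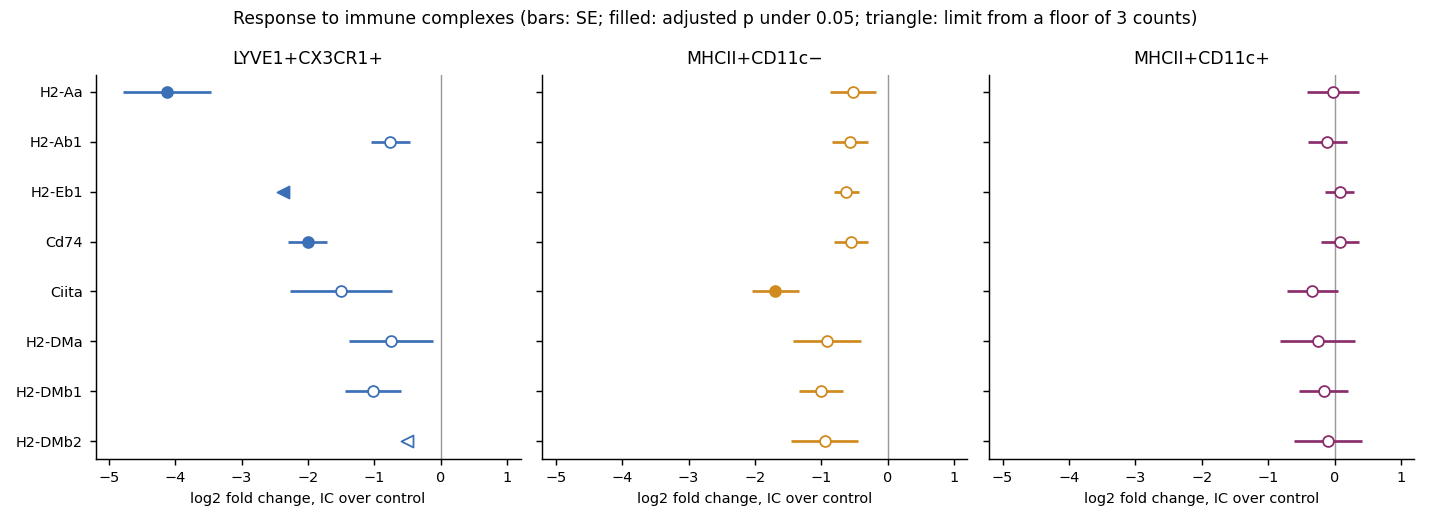
Log2 fold change of IC over control for 8 genes in each sorted subset, with bars for the SE, filled symbols where the adjusted p was under 0.05 and triangles for limits set by a floor of 3 counts where all IC libraries were at 0. H2-Aa, H2-Eb1 and Cd74 were called in LYVE1+CX3CR1+ libraries, Ciita in MHCII+CD11c− libraries, and none of the 8 in MHCII+CD11c+ libraries.

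Whether the responses differed between subsets was tested directly. H2-Eb1 was the 1 member whose response differed, between LYVE1+CX3CR1+ and CD11c− libraries (adjusted p = 0.000367) and between LYVE1+CX3CR1+ and CD11c+ libraries (adjusted p = 3.47e-05), where 0.0262% and 0.0327% of all genes were called. Voom with quality weights ended both calls (adjusted p = 0.647 and 0.243), and DESeq2 called H2-Aa in addition in both and Cd74 in the second. Between CD11c+ and CD11c− libraries 0 of 15272 genes were called by edgeR's quasi-likelihood test (3.25% at an unadjusted p under 0.05) and 2 by DESeq2, neither of them a member, so the fall of Ciita in CD11c− was not shown to be particular to that subset. The difference for Ciita was 1.36 ± 0.51 on the log2 scale (unadjusted p = 0.0166, adjusted p = 1) and that for H2-Eb1 was 0.70 ± 0.29 (unadjusted p = 0.0248). These 2 were the members under an unadjusted p of 0.05. All 9 differences were positive, the CD11c+ response being the higher.

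CD11c+ and CD11c− macrophages were both sorted as MHCII+, so the next comparison asked how much class II transcript the 2 gates held. It was higher in CD11c+ libraries for all 9 genes by fold change. In controls H2-Ab1, H2-Eb1, H2-DMb1 and H2-DMb2 passed the test, 4 of 9, all higher, against 3.67% of all genes higher and 8.66% in either direction. After IC 6 of 9 passed, all higher: the same 4 with Cd74 and Ciita, against 2.29% higher and 4.03% in either direction. Libraries did not overlap for 6 of 9 in controls (12.6% of all genes) and for 9 of 9 after IC (19.6%). Median log2 fold changes were 1.002 in controls and 1.81 after IC, beside -0.03 over all genes in each. The 2 contrasts share no library.

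H2-DMb2, a β chain of the peptide editor, had the largest called fold change of the 9 in both. In controls it was at 18.1, 10.1 and 9.03 CPM in CD11c− libraries and at 109.8, 58.7 and 103 CPM in CD11c+ libraries. After IC it was at 1.77, 5.77 and 12.1 CPM and at 68.5 and 99.9 CPM. The lowest CD11c+ library was above the highest CD11c− library by a wide margin. Log2 fold changes were 2.85 ± 0.50 in controls (adjusted p = 0.000797) and 3.70 ± 0.55 after IC (adjusted p = 0.000377), or 7.23-fold and 13.0-fold. It was called under all 17 and all 16 alternatives.

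H2-DMb1, its neighbour, was at 190 to 195 CPM in CD11c− controls and at 338 to 595 CPM in CD11c+ controls, 2.37-fold higher (adjusted p = 0.0263). After IC it was at 85.6 to 102 CPM and at 379 and 432 CPM, 4.23-fold higher (adjusted p = 0.00258). H2-DMb2 counts were thus 4.79% to 9.60% of H2-DMb1 counts in CD11c− controls and 17.4% to 23.9% in CD11c+ controls; after IC the ranges were 1.85% to 14.3% and 18.1% to 23.1%. No CD11c− library reached the lowest CD11c+ library. In LYVE1+ controls, where H2-DMb2 had 6 to 9 counts, the ratio was 8.07% to 20%. This ratio was picked after its values were seen, has no test, and shares the limit that reads of the 2 genes may be assigned to either. H2-DMa, the common α chain, was at 154 to 188 CPM and 265 to 457 CPM in controls without overlap, but did not pass (1.15 ± 0.51, adjusted p = 0.213), nor after IC (1.81 ± 0.56, adjusted p = 0.108).

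Among the chains, H2-Eb1 was at 1938 to 2285 CPM in CD11c− controls and at 4472, 2747 and 4217 CPM in CD11c+ controls, 1.77-fold higher (adjusted p = 0.00840). After IC it was at 1325 to 1463 CPM and at 3837 and 4179 CPM, 2.86-fold higher (adjusted p = 0.00015), and all 16 alternatives called it. H2-Ab1 was at 3883 to 4307 CPM and at 9804, 6076 and 8856 CPM in controls, 2.00-fold higher (adjusted p = 0.0249). After IC it was 2.75-fold higher (adjusted p = 0.00677). A block on the replicate number ended both H2-Ab1 calls (adjusted p = 0.0616 in controls and 0.0615 after IC, quasi-likelihood test). H2-Aa did not overlap between the gates in either treatment but did not pass (0.73 ± 0.35, adjusted p = 0.249, and 1.23 ± 0.38, adjusted p = 0.102).

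Cd74 and Ciita overlapped between the gates in controls and not after IC. Cd74 was 1.54-fold higher in controls (adjusted p = 0.174) and 2.39-fold higher after IC (adjusted p = 0.0180), a call lost without any 1 of the 5 libraries. Ciita was at 227 to 373 CPM in CD11c+ controls against 165 to 242 CPM in CD11c− controls (adjusted p = 0.315), and at 238 and 269 CPM against 42.4 to 84.1 CPM after IC, 3.96-fold higher (adjusted p = 0.00483). H2-Oa had 40, 0 and 18 counts in CD11c+ controls and 19 and 18 after IC, its highest counts in the series, and did not pass in either (adjusted p = 0.489 and 0.366).

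**Figure D4:**
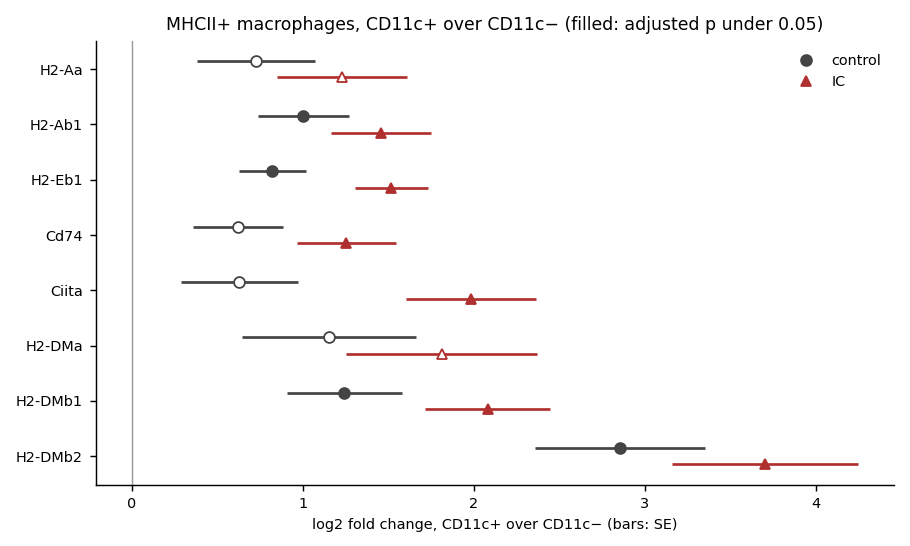
Log2 fold change of CD11c+ over CD11c− MHCII+ libraries for 8 genes, with circles for control, triangles for IC, bars for the SE and filled symbols where the adjusted p was under 0.05. All 16 values lie above 0, from 0.62 (Cd74, control) to 3.70 (H2-DMb2, IC).

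These counts rested on few libraries. In controls, 4 became 1 without CD11c+ library 1 or 3, 2 without any of the 3 CD11c− libraries and 5 without CD11c+ library 2, while after IC 6 became 2 without CD11c+ library 2. The gates also differed in markers of other cells. Dendritic cell markers summed to 96.0 to 245 CPM in CD11c− controls and 255 to 650.0 CPM in CD11c+ controls, and to 77.1 to 85.6 CPM and 279 to 411 CPM after IC. Of the 6 tested, 1 was called higher in CD11c+ controls and 4 after IC (3.67% and 2.29% of all genes higher). Cd209a was a large part of the sums, at 71.4 to 154 CPM in CD11c− and 135 to 452 CPM in CD11c+ controls. The 4 monocyte markers summed to 231 to 514 CPM and 555 to 1169 CPM in controls. Most of that was Ccr2, at 224 to 481 CPM and 547 to 1152 CPM. None of the 4 passed between the gates, with median log2 fold changes of 0.13 in controls and -0.56 after IC. The 6 macrophage markers summed to 5312 to 8440.0 CPM and 2404 to 2727 CPM in controls. All 6 were called lower in CD11c+ controls and 4 of 6 after IC (4.99% and 1.75% of all genes lower). The part of these cells in the result was not tested.

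Ratios of members within a library do not depend on how libraries were scaled. Of 6 ratios, each compared between the gates and between treatments over the 11 MHCII+ libraries, none passed after adjustment over the 12 tests. With 200 arrangements the exact permutation test cannot give a p below 0.005, which alone adjusts to 0.06. H2-Aa counts were 52.2% to 57.4% of H2-Ab1 counts in the 6 CD11c− libraries and 43.0% to 49.0% in the 5 CD11c+ libraries, without overlap. The log2 difference was -0.25 (exact two-sided permutation p = 0.005, the smallest possible, adjusted p = 0.06). Cd74 relative to the 3 chains was 86.0% to 113% in CD11c− and 75.3% to 93.1% in CD11c+ libraries, a log2 difference of -0.22 (exact permutation p = 0.01, adjusted p = 0.06). For the I-A and I-E β chains, H2-Eb1 was at 44.99% to 57.9% of H2-Ab1 across all 11 (adjusted p = 0.474 between gates and between treatments, exact permutation test).

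The summed H2-DM β chains were 93.0% to 148% of H2-DMa in CD11c− and 139% to 160% in CD11c+ libraries, a log2 difference of 0.34 (exact permutation p = 0.025, adjusted p = 0.1). H2-DMa relative to the 3 chains differed by a log2 of 0.34 between the gates and by -0.28 between treatments (exact permutation p = 0.08 and 0.065, adjusted p = 0.192 in both). H2-Oa relative to H2-DMa could hardly be read, as H2-Oa had 0 counts in 4 of the 11 libraries (adjusted p = 0.474 and 0.925, exact permutation test).

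**Figure D5:**
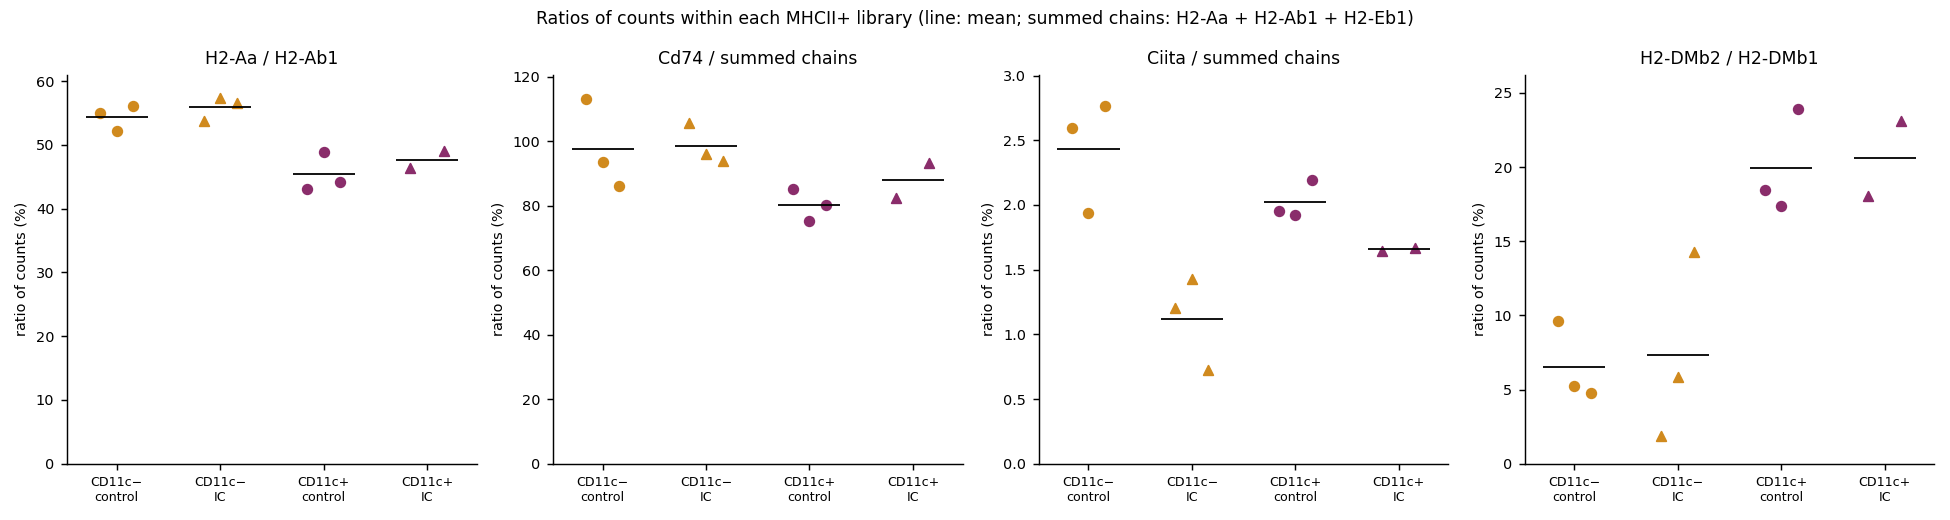
Ratio of counts in percent within each MHCII+ library, for H2-Aa over H2-Ab1, and for Cd74 and Ciita each over the summed H2-Aa, H2-Ab1 and H2-Eb1, and for H2-DMb2 over H2-DMb1, with circles for control, triangles for IC and a line for the mean. H2-Aa over H2-Ab1 was 52.2% to 57.4% in CD11c− and 43.0% to 49.0% in CD11c+ libraries, and Ciita over the chains was 0.723% to 1.43% in CD11c− libraries after IC.

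Other genes of the pathway were read from lists. Of 7 genes that process the invariant chain or its peptides (Ctss, Ctsl, Lgmn, Ifi30, Sppl2a, Ctsd and Ctsb), 3 rose after IC in CD11c+ libraries and none fell, against 0.216% of all genes called. A fit on those 5 libraries alone called 0 of all genes, so these 3 calls are lost there. These were Ctsl, a protease that trims the invariant chain in some cells (1.81 ± 0.35, adjusted p = 0.0391), the endopeptidase gene Lgmn (1.45 ± 0.22, adjusted p = 0.00578) and the cathepsin gene Ctsb (1.25 ± 0.20, adjusted p = 0.00965). The same 3 were lower in CD11c+ than in CD11c− controls, with log2 fold changes of -2.30, -2.02 and -1.67, opposite in sign to the class II genes, in a contrast with 4.99% of all genes lower. After IC Lgmn was the 1 lower (-1.09 ± 0.23, adjusted p = 0.00482; 1.75% of all genes lower). Ifi30, which reduces disulfide bonds of antigens, was higher in CD11c+ libraries in controls (0.68 ± 0.19, adjusted p = 0.0203) and after IC (1.19 ± 0.20, adjusted p = 0.000903). In the other subsets 0 of these 7 passed after IC (2 in CD11c− and 0 in LYVE1+CX3CR1+ libraries at an unadjusted p under 0.05). Macrophage markers also had higher values after IC in CD11c+ libraries. The 6 summed to 2404 to 2727 CPM in controls and to 3398 and 3692 CPM after IC, without overlap. None of the 6 passed, and 4 had an unadjusted p under 0.05 (5.21% of all genes). Their median log2 fold change was 0.63. The part of the cells sorted in the 3 calls was not tested.

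The DNA-bound factors that recruit the product of Ciita (Rfx5, Rfxap, Rfxank, Nfya, Nfyb, Nfyc and Creb1) gave 0 calls of 7 after IC in each subset and between CD11c+ and CD11c− in each treatment. At an unadjusted p under 0.05 there were 0 in LYVE1+CX3CR1+, 2 in CD11c− and 2 in CD11c+ libraries after IC. In CD11c− libraries Nfya was at -0.45 ± 0.18 (adjusted p = 0.344) and Rfx5 at -1.14 ± 0.54 (adjusted p = 0.49). Of 12 regulators of Ciita, none passed after IC in any subset (1 in LYVE1+CX3CR1+, 3 in CD11c− and 0 in CD11c+ libraries at an unadjusted p under 0.05). The smallest p in CD11c− libraries was that of Irf1, an interferon-induced activator (-0.65 ± 0.22, adjusted p = 0.228). Between the gates Jak2, a kinase of the interferon gamma receptor, was higher in CD11c+ in controls (1.51 ± 0.22, adjusted p = 8.26e-05) and after IC (2.07 ± 0.24, adjusted p = 1.91e-05). Irf8 (-1.15 ± 0.35, adjusted p = 0.0458) and the glucocorticoid receptor gene Nr3c1 (-1.04 ± 0.19, adjusted p = 0.000808) were lower there in controls.

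Of the class II relatives, H2-Ob, the β chain of H2-DO, was at 19.5 to 36.6 CPM in CD11c+ controls and 8.32 to 17.7 CPM in CD11c− controls. After IC it was at 18.7 CPM in both CD11c+ libraries and at 0.275 to 6.39 CPM in CD11c− libraries, and it passed there (2.24 ± 0.64, adjusted p = 0.0453). The I-E α chain gene H2-Ea was at 0 in every LYVE1+ and CD11c− library and at most at 3.40 CPM in CD11c+ libraries, while its β chain partner H2-Eb1 was at 1325 to 4472 CPM in MHCII+ libraries. The I-E protein was not measured on its own, so values of H2-Eb1 are read as transcript and not as presentation by I-E. Of 3 genes of class II surface turnover in the table (Marchf1, Marchf8 and Cd83), none passed after IC in any subset, nor at an unadjusted p under 0.05.

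Apart from the members, the genes whose levels ran closest to the mean log2 CPM of H2-Aa, H2-Ab1, H2-Eb1 and Cd74 over the 17 libraries were Plbd1 (Pearson r = 0.977), Mefv (0.970), Ccr2 (0.968), Sorl1 (0.966) and Cd209a (0.952), among 8539 genes with a mean of at least 10 CPM. This likeness is mostly that of the gate. Within the 11 MHCII+ libraries they were Lsp1 (0.973), Ltb4r1 (0.973), Gm2a (0.971), Etv3 (0.970) and Amz1 (0.970). There the members themselves had r of 0.986 for H2-DMb1, 0.969 for H2-DMa and 0.941 for H2-DMb2, while Ciita had 0.892 and ranked 169 of 8554 genes. These values are descriptions over libraries that share subset and treatment.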

How the data were processed

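RNA from sorted synovial macrophages (5 ng per library) was prepared with a stranded total RNA kit and sequenced as read pairs. The authors trimmed reads with Trim Galore, checked them with FastQC, aligned them to mm10 with HISAT2 and, per the labels, counted them with featureCounts (versions, annotation and strand setting are not given in the sources used here). The deposited values are raw counts per gene, from 2301913 to 7248939 per library. A further column (1 in all) had no counterpart among the samples and was left out.

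Genes were kept by edgeR's filterByExpr (minimum count 10). A model with a mean for each of 6 groups was fitted to all 17 libraries with TMM scaling and the quasi-likelihood test (edgeR 4.0.16, R 4.3.3, 11 residual degrees of freedom). P-values were adjusted by Benjamini-Hochberg within each of 12 contrasts and called at 0.05. CPM are counts per 1000000 of the TMM-scaled total. Ratios, with 0.5 added to each count, were tested by exact permutation. Alternatives were RLE and unscaled totals, scaling without the members, no filter, DESeq2 1.42.0, limma 3.58.1 voom, sva 3.50.0, a replicate block, equal depth, fewer groups and leaving out libraries. The floor of 3 counts covers counting error only. The fit was checked on simulated counts for IC against control in CD11c− libraries. It recovered 29.3% of genes changed by 1 on the log2 scale and 94.1% of genes changed by 2. Changes of about 1 or less there can thus often go uncalled. The changed genes were drawn from those above a set mean level, and every group had the same baseline. The rates therefore do not carry over to genes at low levels in CD11c− libraries, such as H2-DMb2 and H2-Oa.

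The members were named by the rule, the pathway lists are named in the text with up to 4 genes by smallest p, and likeness took 5 genes per set. Members and lists were chosen with earlier results of these data known. The promoters of H2-Ab1, Ciita and Cd74 were not analysed here. T cell, fibroblast, endothelial and neutrophil markers were also summed: neutrophil markers were at 39.8 to 187 CPM in CD11c− controls and 58.3 to 107 CPM after IC, at 63.9 to 231 CPM and then 25.0 to 29.5 CPM in CD11c+ libraries, and at 29.2 to 39.4 CPM and then 7.24 to 32.8 CPM in LYVE1+CX3CR1+ libraries, T cell (Cd3d) at most 4.33 CPM, fibroblast at most 74.9 CPM and endothelial at most 26.4 CPM in any library.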

Additional observations from a re-analysis of the deposited data

Results flagged for a closer look

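The response of H2-Eb1 to IC differed between sorted subsets by the test of the difference itself. The log2 difference of the responses was -7.00 for LYVE1+CX3CR1+ minus MHCII+CD11c− libraries and -7.70 for LYVE1+CX3CR1+ minus MHCII+CD11c+ libraries. Both sizes are fitted values against libraries with 0 counts and depend on the prior count. By the floor of 3 counts the fall in LYVE1+CX3CR1+ libraries was at least 5.19-fold, while the log2 fold change was -0.62 ± 0.19 in CD11c− and 0.07 ± 0.22 in CD11c+ libraries. The first difference was called under 21 of 22 alternatives and the second under 20 of 21, and voom with quality weights called neither (adjusted p = 0.647 and 0.243). No group had 4 or more libraries, so no single library was tested as standing apart.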

How the results depend on the processing

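In LYVE1+CX3CR1+ libraries the 3 called genes became 0 with voom and 1 in the fit on those groups alone, and 3 to 4 when single libraries were left out. In CD11c− libraries the 1 called gene became 0 at an adjusted p under 0.01, with no filter and with the replicate block, 2 with DESeq2, in the fit on those groups alone and without the treated LYVE1+CX3CR1+ libraries (a setting chosen after seeing the data), 4 with voom, and 0 to 1 without single libraries. In CD11c+ libraries the count stayed at 0. For CD11c+ over CD11c− controls, 4 became 2 at an adjusted p under 0.01 and with no filter, 8 with voom and 1 to 5 without single libraries; after IC, 6 became 2 to 5 without single libraries. The 1 difference of responses became 2 (against CD11c−) and 3 (against CD11c+) with DESeq2, 0 in both with voom, 2 against CD11c+ at equal depth, and 1 to 2 without single libraries. LYVE1+CX3CR1+ against the other gates gave 7 to 9 of 9 without single libraries.

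The sign turned for H2-Aa (0.15) and H2-DMb2 (0.24) in CD11c+ libraries after IC with 1 surrogate variable, and for H2-Eb1 (-0.0184 in both) and Cd74 (-0.0105 and -0.0106) with RLE and DESeq2. Without single libraries the ranges there were -0.16 to 0.0788 for H2-Aa, -0.29 to 0.0306 for H2-Ab1, -0.12 to 0.20 for H2-Eb1, -0.12 to 0.26 for Cd74, -0.34 to 0.0782 for H2-DMb1 and -0.42 to 0.14 for H2-DMb2. Among ratios, H2-Eb1 over H2-Ab1 between the gates was 0.0599 within IC libraries. H2-Aa over H2-Ab1 (-0.24) and Cd74 over the chains (-0.23) passed at equal depth. Without single libraries the IC difference of the summed H2-DM β chains over H2-DMa ranged from -0.0587 to 0.11, and that of H2-Oa over H2-DMa from -0.81 to 0.66. The cause of these changes was not tested.

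Replicate numbers recur across groups, but the labels do not say that they mark shared mice, so they were not taken as pairs. Correlations of same-numbered CD11c− and CD11c+ control libraries were 0.0986, 0.286 and 0.0796. Differently numbered libraries were not compared, so these values cannot decide on pairing. In both gates control library 2 had the most LYVE1+CX3CR1+ gate marker (1903 and 632 CPM) and the least dendritic cell marker (96.0 and 255 CPM). Whether the numbers mark shared mice was not tested. With the replicate block the count for CD11c+ over CD11c− was 3 in controls and 5 after IC, with H2-Ab1 lost in both. Genes with few counts, such as H2-Oa and the LYVE1+CX3CR1+ values, are limited by depth.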
